A study of Mus musculus with 4 samples.

Results

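p53 is a transcription factor that is kept low in unstressed cells because its target Mdm2 encodes a ubiquitin ligase that marks p53 for destruction. DNA damage and other stresses break this loop, and p53 then switches on genes of cell cycle arrest, apoptosis, DNA repair and metabolic control. In fibroblasts the pathway is best known for arrest and senescence after damage. The genes described here are Trp53, which encodes p53, its inhibitor Mdm2 and 8 known p53 targets (Ccng1, Plk2, Bbc3, Bax, Zmat3, Phlda3, Sesn1 and Btg2). They were chosen by symbol, as all transcript rows of these names, which gave 13 rows of 10 genes among 40739 rows of 25177 gene symbols. Trp53, Mdm2 and Sesn1 had 2 rows each, and the others had 1.

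Nuclear RNA was sequenced from NIH-3T3, an established line of mouse embryonic fibroblasts. The cells stably carried an H2B-mCherry reporter, the transactivator rtTA3G and a CDX2 transgene under the doxycycline-responsive TRE3G promoter, and were grown with puromycin. CDX2 is a homeobox factor of intestine, trophectoderm and the posterior embryo. Doxycycline (500 ng/ml, though another protocol gives this figure per microlitre; 6 h) had been added to the cells of 2 libraries and solvent alone to those of the other 2, so all 4 share the transgenes and the puromycin. The comparison asks which nuclear transcripts differ once CDX2 is induced, and effects of CDX2 and of doxycycline itself cannot be told apart in it. Whether the line is 1 clone is not stated in the sources used here. NIH-3T3 cells are known for loss of the Cdkn2a locus, whose product Arf inhibits Mdm2, and Cdkn2a is listed without reads in the authors' deposited table.

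The authors' deposited table holds 1 log2 fold change (doxycycline over solvent) and 1 mean log2 CPM (the count scaled to library size) per transcript. It has no value per library, so single replicates cannot be shown. Levels with and without doxycycline were worked out by placing the fold change evenly around the mean level on the log2 scale. No size is given per library, and the geometric mean is about 45700000 effective counts. Rows without reads, such as Cdkn2a, had a log2 fold change of -0.21. If the small count added before the log was the same in each library, effective libraries were larger with doxycycline. The members had 306.5 (Sesn1) to 6685 (Ccng1) counts per library on average. The Cdx2 row was 124-fold higher with doxycycline (95% interval 109-fold to 140-fold) in the authors' deposited table, which does not part the transgene from the endogenous gene. This row stood at 4.96 CPM with solvent and 612 CPM with doxycycline, so Cdx2 reads were present without induction too. Of 14 fibroblast markers 12 had enough reads to be tested, with Col1a1 at 2086 and Vim at 1376 CPM, whereas Lum is listed without reads. Of these 12, 7 fell and 1 rose by the authors' deposited table, or 66.7% called (the authors' adjusted p under 0.05) beside 24.7% of all genes tested. The summed level of all 14 went from 7522 to 6379 CPM; the part of this shift in the results below was not tested. Markers of other cell types summed to 4.45 CPM with solvent and 2.32 with doxycycline for 7 epithelial genes, 1.16 and 0.990 for 5 immune genes, 4.63 and 3.97 for 5 endothelial genes, and 3.2 and 3.54 for 6 muscle and neuron genes. Of the 7 epithelial genes 2 were tested, and both were called lower from low levels in the authors' deposited table. Cdh1 had a log2 fold change of -1.62 from 1.43 CPM with solvent, and Grhl2 -0.82 from 2.96 CPM. Krt19 had too few reads to be tested, 1.18 counts per library on average, and its estimate went the other way. Its log2 fold change was 3.6, from 0.0105 CPM with solvent to 0.128 CPM with doxycycline. Krt18, Esrp1, Cd3e, Adgre1, Syt1, Snap25 and Myod1 are listed without reads.

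With doxycycline, Plk2 fell 2.55-fold and Btg2 rose 1.72-fold, Phlda3 fell 1.22-fold and Zmat3 1.18-fold, and the other 6 genes, Trp53 and Mdm2 among them, did not pass the test in the authors' deposited table. The 10 members all passed the floor of 10 counts per library on average, and 3 were called lower and 1 higher. Over the 12355 genes tested, 24.7% were called, 13.4% lower and 11.3% higher. Rises thus made up 45.7% of calls, or 58.9% when fold changes were centred on ribosomal protein genes. The median log2 fold change of the 10 members was -0.14, beside -0.0011 over all genes tested, and the median size regardless of sign was 0.22, beside 0.13. A call together with a change of at least 2-fold was seen in 1 member (Plk2), beside 1.68% of all genes tested. The members thus split into a pair with large changes of opposite sign and 8 genes whose log2 fold changes lay between -0.29 and 0.12.

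The authors' standard errors were shared across genes: a gene's level and fold together set 99.2% of the variance of their logarithm over 9441 genes. The scatter between the replicates of a single gene therefore hardly enters its p-value. As a stricter reading, all standard errors were widened 2.08-fold, the robust SD of t over all genes tested, a spread that holds real changes as well as error. Plk2 and Btg2 were then still called, Phlda3 and Zmat3 were not, and 4.66% of all genes tested were called. Of the fibroblast markers, Prrx1 and Pdgfrb were then called lower and Pdgfra higher, and of the epithelial markers Cdh1 was called lower.

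**Figure D1:**
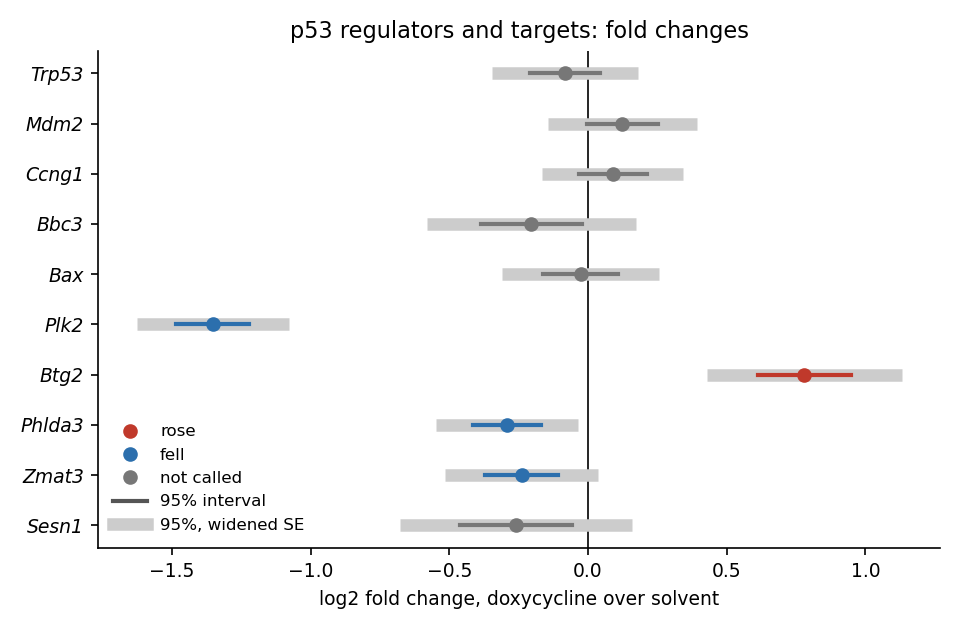
Log2 fold change (x axis, doxycycline over solvent) of the 10 members, from the authors' deposited table. Points are estimates (red rose, blue fell, grey not called), thin bars are 95% intervals and broad light grey bars the intervals with standard errors widened 2.08-fold. Plk2 (-1.35) and Btg2 (0.78) stand well clear of 0 with both bars. Phlda3 (-0.29) does so narrowly, but is not called with widened standard errors once p-values are adjusted.

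Among the regulators, Trp53 (NM_001127233, mm10 chromosome 11, 69580359 to 69591873) stood at 108 CPM with solvent and 102 CPM with doxycycline. Its log2 fold change was -0.083 ± 0.065 (± standard error, adjusted p 0.542 by the authors' limma test) in the authors' deposited table. The 95% interval ran from 0.865-fold to 1.03-fold, and both bounds rest on the pooled error. The second row of the gene, NM_011640, shares its span and gave -0.085 ± 0.065 in the authors' deposited table. Both rows cover nearly the same exon length (1847 and 1751 bases), so they are not taken as separate evidence.

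Mdm2 (NM_010786, chromosome 10, 117688875 to 117710758), both a p53 target and the ligase that removes p53, stood at 66.9 CPM with solvent and 72.9 CPM with doxycycline. The log2 fold change was 0.12 ± 0.066 (adjusted p 0.251, limma) in the authors' deposited table. The other Mdm2 row had 0.12 ± 0.066 as well. With fold changes centred on the median of 59 cytosolic ribosomal protein genes (-0.041), Mdm2 passed the threshold (0.16, adjusted p 0.0448), and it did so under no other setting tried. Mdm4, the Mdm2 paralogue that blocks the transactivation domain of p53, stood at -0.058 ± 0.068 (adjusted p 0.833, limma) in the authors' deposited table.

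Ccng1, which encodes cyclin G1, a p53 target that recruits protein phosphatase 2A to Mdm2, was the member with the most reads. Its level (NM_009831, chromosome 11, 40748552 to 40755286) was 142 CPM with solvent and 151 CPM with doxycycline, a log2 fold change of 0.089 ± 0.063 (adjusted p 0.479, limma) in the authors' deposited table. The log2 fold changes of Trp53, Mdm2 and Ccng1 thus lay between -0.083 and 0.12.

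The promoters of the 2 members with large changes, and of 2 of the 4 members with a match to the known p53 binding site, are shown. They can be set beside the fold changes. They are RefSeq sequences of build GRCm38.p6, the 250 bases before the start site, 5′ to 3′ on the gene's strand, and 9 of the 10 members had an entry (Zmat3 had none). Capitals mark TGACGTCA, the cAMP response element (CRE), in Plk2 and Btg2, and the p53 site match in Ccng1 and Bbc3.
Plk2 promoter (chr13:110394794-110395043, plus strand): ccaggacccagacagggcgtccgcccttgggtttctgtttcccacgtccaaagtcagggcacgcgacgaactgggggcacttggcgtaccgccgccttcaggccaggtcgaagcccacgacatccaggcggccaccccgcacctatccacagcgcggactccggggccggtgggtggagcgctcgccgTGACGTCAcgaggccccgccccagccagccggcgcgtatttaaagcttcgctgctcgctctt
Btg2 promoter (chr1:134079156-134079405, minus strand): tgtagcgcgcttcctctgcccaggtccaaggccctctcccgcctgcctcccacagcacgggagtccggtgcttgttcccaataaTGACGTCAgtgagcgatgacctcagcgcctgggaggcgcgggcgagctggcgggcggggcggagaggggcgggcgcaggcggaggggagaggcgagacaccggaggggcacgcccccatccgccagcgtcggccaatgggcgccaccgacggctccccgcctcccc
Ccng1 promoter (chr11:40755287-40755536, minus strand): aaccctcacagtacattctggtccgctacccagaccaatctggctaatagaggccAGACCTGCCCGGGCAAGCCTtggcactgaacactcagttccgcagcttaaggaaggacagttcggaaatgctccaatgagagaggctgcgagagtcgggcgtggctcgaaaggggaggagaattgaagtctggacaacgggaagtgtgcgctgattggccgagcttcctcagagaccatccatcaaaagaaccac
Bbc3 promoter (chr7:16309333-16309582, plus strand): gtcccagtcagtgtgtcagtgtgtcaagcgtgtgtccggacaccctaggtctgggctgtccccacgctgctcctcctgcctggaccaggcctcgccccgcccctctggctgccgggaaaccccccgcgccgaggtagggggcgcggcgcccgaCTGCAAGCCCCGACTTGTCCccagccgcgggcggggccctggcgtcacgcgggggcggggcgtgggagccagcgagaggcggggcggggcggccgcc

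The p53 site was searched as the p53 response element consensus of 20 bases without spacer, which reads the same on both strands, with the C and G of both cores kept and up to 3 mismatches elsewhere. The mismatch limit was set with the Bbc3 sequence in view. The site was found in 1.14% of 32851 promoters of the same length. Counted by gene instead, it was found in a promoter of 4 of the 9 members with an entry, which had 12 promoters between them. The Ccng1 match, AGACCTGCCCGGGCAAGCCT, had 1 mismatch and began 195 bases before the start. The Bbc3 match, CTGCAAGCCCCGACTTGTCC, had 3 mismatches and began 97 bases before the start. Trp53 (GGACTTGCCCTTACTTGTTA, 75 bases before the start) and the downstream Sesn1 promoter (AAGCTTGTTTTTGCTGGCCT, 173 bases before the start) also had 3 mismatches each. None of these 4 genes was called in the main comparison. The 3 called members with a promoter entry had no match in this window. Sesn1 and Bbc3 were called lower under some of the other settings described below, so this split depends on the setting. Sequence outside this window, such as introns, was not searched.

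The CRE, searched as TGACGTCA, its own reverse complement, was found in 1.55% of the 32851 promoters. It was present in the promoters of Plk2, 62 bases before the start, and of Btg2, 166 bases before the start, and of no other member. These are the member that fell most and the member that rose. This motif was chosen after the sequences and fold changes were seen, so no link with the changes is read from the match. The core of the known CDX binding site, TTTAT, was searched on both strands and was found in 37.3% of promoters. Of the 9 members with an entry, Trp53 alone held it, 248 bases before the start. No motif searched here overlapped another in these promoters, and a match shows letters, not binding.

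Of the growth arrest genes, Plk2 encodes a polo-like kinase that acts in centriole duplication and is induced by serum and by p53. Its row (NM_152804, chromosome 13, 110395044 to 110400843) stood at 93.4 CPM with solvent and 36.6 CPM with doxycycline. The log2 fold change was -1.35 ± 0.067 (95% interval -1.48 to -1.22, adjusted p 9.63e-87 by the authors' limma test) in the authors' deposited table. It had the 19th smallest p and the 67th largest fall of the 12355 genes tested. Per kb of exon, Plk2 went from 33.7 to 13.2 CPM, from above the level of Mdm2 to below it.

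Btg2, an antiproliferative gene of the BTG/TOB family and an immediate early gene as well as a p53 target, moved the other way. Its row (NM_007570, chromosome 1, 134074865 to 134079155) stood at 9.22 CPM with solvent and 15.8 CPM with doxycycline. The log2 fold change was 0.78 ± 0.086 (95% interval 0.61 to 0.95, adjusted p 8.39e-18, limma) in the authors' deposited table. A larger change in either direction was seen in 3.4% of all 12355.

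**Figure D2:**
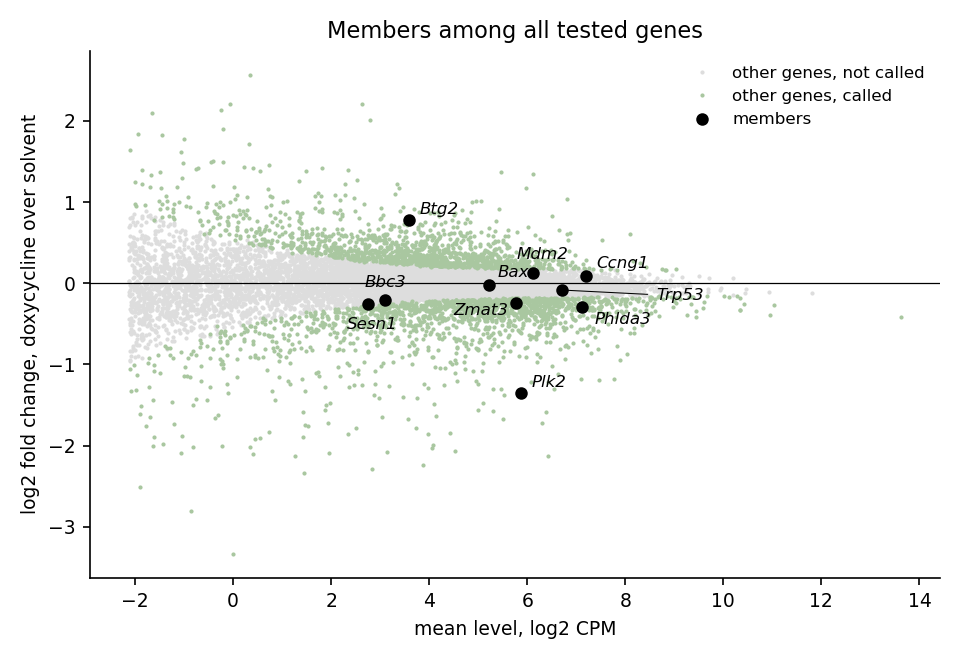
Log2 fold change (y axis) against mean level in log2 CPM (x axis) for the genes tested, from the authors' deposited table; Cdx2 itself lies above the axis and is not drawn. Black points are the 10 members, green points other genes called and grey points other genes not called; Plk2 and Btg2 lie in the outer part of the cloud and the others near its centre.

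Bbc3 and Bax, the apoptotic genes among the members, did not pass the test. Bbc3 encodes Puma, a BH3-only protein that frees Bax and Bak to open the outer mitochondrial membrane. Its level (NM_133234, chromosome 7, 16309583 to 16318334) was 9.21 CPM with solvent and 7.99 CPM with doxycycline, a log2 fold change of -0.20 ± 0.093 (adjusted p 0.136, limma) in the authors' deposited table. With the trend of fold change on level removed it was called lower (-0.23, adjusted p 0.0447). Bax, the pore-forming effector (NM_007527, chromosome 7, 45461695 to 45466898), was at 37.6 and 36.9 CPM, with a log2 fold change of -0.027 ± 0.069 (adjusted p 0.873, limma) in the authors' deposited table. Its sign turned with ribosomal protein centring (0.014). The gene model Gm45808 shares 192 bases of exon with Bax in GENCODE M21, so some of these reads may belong to either.

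Bax and Bbc3 belong to the BCL2 family, of which a list of 21 genes with the apoptosome was described. By the authors' deposited table, 5 of the 17 tested genes rose, 2 fell and the remaining 10 were not called, or 41.2% called beside 24.7% over all genes tested, and the median log2 fold change was 0.14. The falls were Bcl2l1, which encodes the survival protein Bcl-xL (-0.61 ± 0.066, adjusted p 1.04e-18), and Bid, a BH3-only protein cleaved by an initiator caspase (-0.76 ± 0.084, adjusted p 9.6e-18, limma) in the authors' deposited table. The rises were smaller and included Bok, a relative of Bax (0.39 ± 0.084), Apaf1, the scaffold of the apoptosome (0.32 ± 0.071), the BH3-only gene Bcl2l11 (0.32 ± 0.088) and Bcl2 (0.27 ± 0.080) in the authors' deposited table. Genes that promote and genes that restrain apoptosis were present in both directions. Pmaip1, which encodes the p53-induced BH3-only protein Noxa, is listed without reads. With widened standard errors only the 2 falls were still called.

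Phlda3, Zmat3 and Sesn1 are p53 targets that act on signalling, RNA and metabolism, and all 3 estimates lay below 0. Phlda3, whose product competes with Akt for membrane lipids, had the highest level per kb of exon of all members, 105 CPM per kb with solvent and 86.1 with doxycycline. Its log2 fold change (NM_013750, chromosome 1, 135766085 to 135769134) was -0.29 ± 0.063 (adjusted p 5.79e-05, limma) in the authors' deposited table, a fall of 1.22-fold. Zmat3, an RNA-binding zinc finger protein (NM_009517, chromosome 3, 32334794 to 32365665), went from 59.2 to 50.1 CPM. Its log2 fold change was -0.24 ± 0.068 (adjusted p 0.00423, limma) in the authors' deposited table, a fall of 1.18-fold. With widened standard errors the adjusted p was 0.264 for Phlda3 and 0.561 for Zmat3.

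Sesn1 encodes sestrin 1, a leucine-sensing inhibitor of mTORC1 signalling, and was the member with the lowest level per kb (2.32 CPM per kb with solvent and 1.94 with doxycycline). The longer row (NM_001162908, chromosome 10, 41810574 to 41908436) had a log2 fold change of -0.26 ± 0.10 (adjusted p 0.0712, limma) in the authors' deposited table. The row from the downstream start (NM_001013370, chromosome 10, 41887439 to 41908436) had -0.27 ± 0.11 (adjusted p 0.077, limma) in the authors' deposited table. It lies within the span of the longer row and shares reads with it. The 2 rows are therefore not taken as separate evidence, and their likeness does not show that both starts changed. Sesn1 had an estimate as large as that of Zmat3 but fewer reads: its unadjusted p of 0.0117 lay just above 0.00753, the largest that was called. It passed when p-values were adjusted over the genes tested alone (0.0438).

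Ordered by mean level per kb of exon, Phlda3 (95.3 CPM per kb) came first, followed by Trp53 (56.8), Bax (43.4), Ccng1 (42.1), Mdm2 (22.7), Plk2 (21.1), Zmat3 (7.01), Bbc3 (4.36), Btg2 (3.92) and Sesn1 (2.12). The table gives no spread over libraries for a level, so neighbours in this order cannot be tested against each other. Level did not sort the direction: of the 4 genes above 40 CPM per kb, Phlda3 fell, and of the 4 below 10, Zmat3 fell and Btg2 rose.

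**Figure D3:**
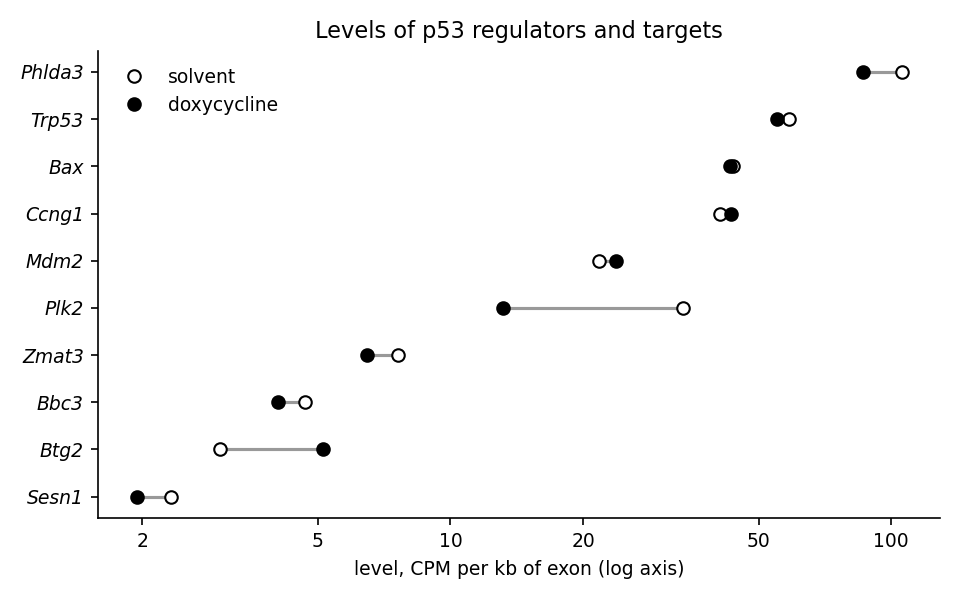
Level in CPM per kb of exon (x axis, log scale) of each member with solvent (open) and doxycycline (filled), worked out from the authors' deposited table, ordered by mean level. Plk2 moves from 33.7 to 13.2 and Btg2 from 2.99 to 5.14, while Bax, Trp53, Ccng1 and Mdm2 hardly part.

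Other p53 targets, from a list of 38 known target genes outside the members, moved in both directions with more rises. By the authors' deposited table, 10 of the 33 tested genes rose, 5 fell and the remaining 18 were not called, or 45.5% called beside 24.7% of all genes tested. Their median log2 fold change was 0.11, beside -0.0011 over all genes tested and -0.14 for the 10 members. With the 9 member targets added, 11 of 42 tested targets rose and 8 fell, with a median of 0.047. Apaf1, Pmaip1, Plk3, Sesn2 and Tob1 are also on another list used here. Cdkn1a, which encodes the CDK inhibitor p21 and is the main arrest target of p53, went from 94.2 to 144 CPM, a log2 fold change of 0.61 ± 0.064 (adjusted p 4.77e-20, limma) in the authors' deposited table. Ddit4, an mTORC1 inhibitor also known as Redd1 (0.61 ± 0.099), Trp53inp1, an autophagy and stress gene (0.53 ± 0.098), and Apaf1 rose as well in the authors' deposited table. The death receptor genes Fas (0.67 ± 0.17, adjusted p 0.00157) and Tnfrsf10b (0.26 ± 0.069, adjusted p 0.00246, limma) also rose in the authors' deposited table, Fas from a low level of 1.25 CPM.

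The falls on that list were led by Slc19a2, a thiamine transporter gene (-0.47 ± 0.068), the stress gene Ndrg1 (-0.34 ± 0.070), the epoxide hydrolase gene Ephx1 (-0.28 ± 0.065) and Polk, a translesion DNA polymerase (-0.29 ± 0.082) in the authors' deposited table. With widened standard errors 1 of the 33 was called higher (Cdkn1a) and 1 lower (Slc19a2). Perp and Pmaip1 are listed without reads. With ribosomal protein centring the counts were 14 rises and 4 falls.

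**Figure D4:**
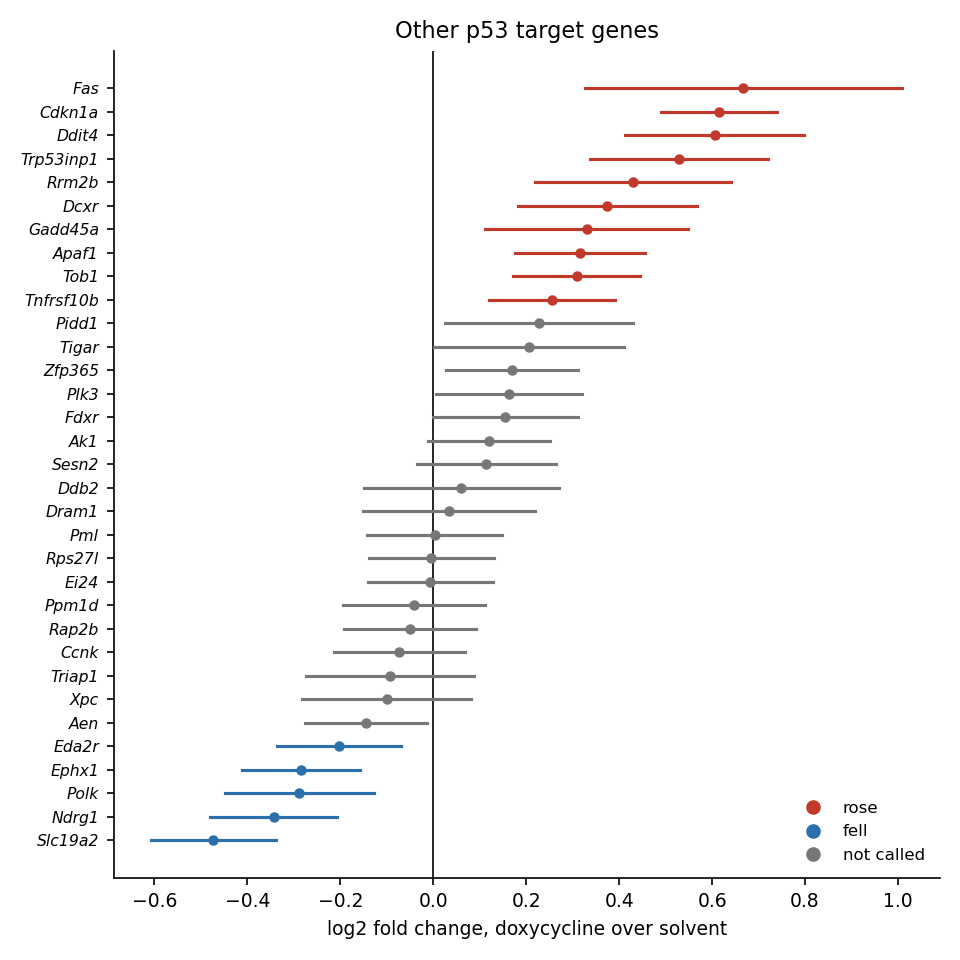
Log2 fold change (x axis) with 95% interval for the 33 tested p53 target genes outside the members, ordered by estimate, from the authors' deposited table. The 10 genes that rose (red) and the 5 that fell (blue) flank 18 that were not called (grey); Cdkn1a (0.61) and Slc19a2 (-0.47) have narrow intervals far from 0.

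A list of 32 p53 regulators (kinases, acetylation and ubiquitin enzymes, binding partners and relatives of p53) was called at about the share over all genes. By the authors' deposited table, 4 of the 29 tested regulators rose, 3 fell and the remaining 22 were not called, or 24.1% called beside 24.7%, with a median log2 fold change of -0.047. Atr and Atm, the kinases that signal DNA damage to p53, both fell (-0.38 ± 0.074, adjusted p 5.9e-06, and -0.27 ± 0.073, adjusted p 0.0028, limma) in the authors' deposited table. The other damage kinases on the list did not pass, with Prkdc at -0.19 ± 0.077, Chek1 at -0.0084 ± 0.080 and Chek2 at 0.17 ± 0.098 in the authors' deposited table. Usp10, a deubiquitinase of p53, fell as well (-0.31 ± 0.067) in the authors' deposited table. Ep300, an acetyltransferase and p53 coactivator (0.26 ± 0.064), Sirt1, a deacetylase (0.25 ± 0.081), the histone chaperone gene Daxx (0.22 ± 0.078) and the histone reader gene Ing1 (0.21 ± 0.077) rose in the authors' deposited table. With widened standard errors 0 of the 29 were called in either direction, with the level trend removed 2 rose and 4 fell, and at an adjusted p under 0.01 1 rose and 3 fell. Trp73 is listed without reads and Trp63 held under 1 count per library on average.

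Members were then set against their paralogues, in 17 pairs with tested genes. The difference of log2 fold changes is given with a 95% interval that takes the errors of both genes as independent. In 15 of 17 pairs the interval left out 0, and in 8 it did so with widened standard errors. Pairs share members, and no share for pairs of other genes was computed, so nothing particular to these pairs is read from the count. Of the 18 tested paralogues 5 rose and 0 fell by the authors' deposited table, or 27.8% called beside 24.7% of all genes tested, and with widened standard errors 1 rose (Ccng2). Plk2 fell while its relatives did not pass: Plk1 stood at 0.11 ± 0.066, Plk3 at 0.16 ± 0.080 and Plk4 at 0.0034 ± 0.069 in the authors' deposited table. The difference to Plk3, also a stress-responsive kinase, was -1.52 (-1.72 to -1.31).

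Ccng1 and Ccng2, the 2 genes of G-type cyclins, differed by -0.96 (-1.21 to -0.72), since Ccng2, known as a FoxO target, rose by 1.05 ± 0.11 (adjusted p 1.04e-19, limma) in the authors' deposited table. Ccng2 went from 3.85 to 7.98 CPM, and the more distant relative Ccni, not set in a pair, stood at 0.055 ± 0.066 in the authors' deposited table. Phlda3 fell while Phlda1 rose (0.41 ± 0.065, adjusted p 1.19e-08, limma) in the authors' deposited table, a difference of -0.70 (-0.88 to -0.52). Both of these pairs kept an interval without 0 when standard errors were widened.

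Btg2 was set against 4 relatives. Tob1 (0.31 ± 0.070) and Tob2 (0.29 ± 0.068) rose by smaller amounts and Btg1 stood at 0.037 ± 0.065 in the authors' deposited table. The difference was 0.74 (0.53 to 0.95) to Btg1, 0.47 (0.25 to 0.69) to Tob1 and 0.49 (0.27 to 0.70) to Tob2. Btg3, with fewer reads, stood at -0.062 ± 0.21 in the authors' deposited table, a difference of 0.84 (0.41 to 1.28) whose interval held 0 with widened standard errors (-0.065 to 1.75). Sesn1 stood below Sesn2 by 0.37 (0.12 to 0.62) and below Sesn3 by 0.40 (0.10 to 0.70), intervals that held 0 with widened standard errors.

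The intervals for Mdm2 against Mdm4 (0.18, from -0.0043 to 0.37) and Bax against Bak1 (-0.040, from -0.23 to 0.15) held 0. Bax stood below Bok by 0.41 (0.20 to 0.63), and Zmat3 below Zmat1, Zmat2 and Zmat5 by 0.55, 0.24 and 0.34, with intervals that held 0 when widened.

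**Figure D5:**
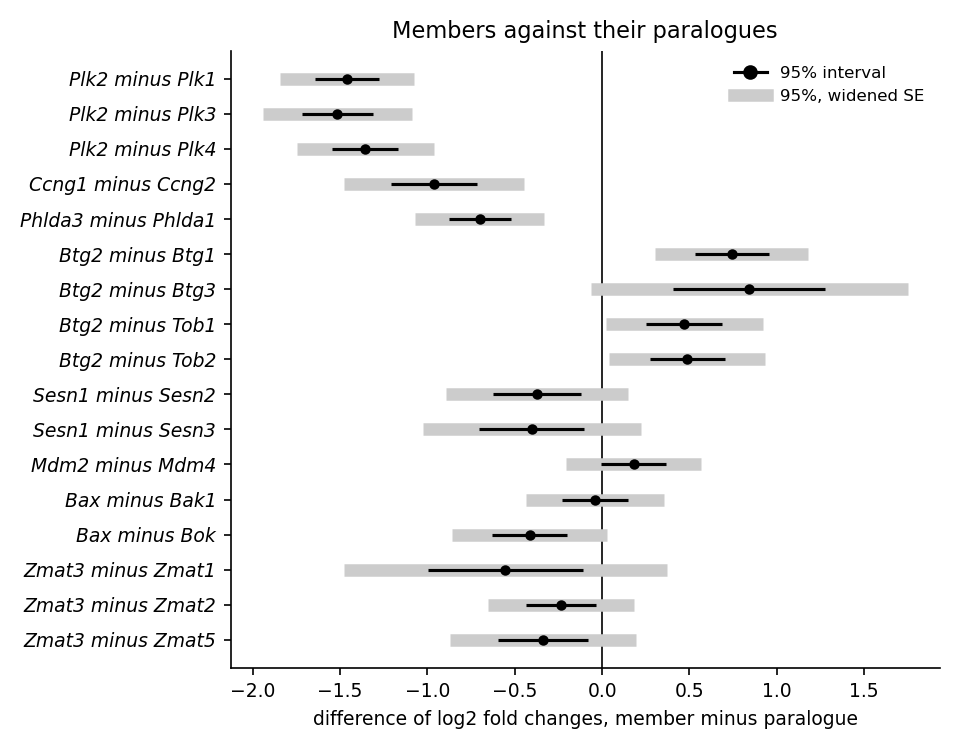
Difference of log2 fold changes, member minus paralogue (x axis), for 17 pairs, worked out from the authors' deposited table. Black bars are 95% intervals and broad grey bars the same with standard errors widened 2.08-fold; the 3 Plk2 pairs lie furthest below 0 and the Btg2 pairs above it.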

How the data were processed

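Nuclear RNA of 4 libraries, 2 with doxycycline and 2 with solvent, was compared, with groups from the sample titles. Separate cultures are not stated for the replicates, so the spread behind the p-values may be technical. As described above, that spread is an error shared across genes and hardly reflects the scatter of the single gene. The submitters' processing notes list limma, edgeR, HOMER 4.10, Picard, STAR 2.7.1a and SAMtools 1.10 and build mm10, without roles. The library kit is directional per the labels, and whether counting used strand is not stated there.

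The authors' deposited table gives, per the file headers, log2 fold changes, a mean log2 expression, a t score, p-values and adjusted p-values, and other columns such as position and exon length. At 44446 degrees of freedom t gives the p-values, and adjusted values fit as many rows, of which 3707 are not analysed here. That is 1 residual degree of freedom per row, so the authors' model of 4 libraries held a term beyond the groups that is not stated. The 9211 rows at the lowest level hold no reads. Values were taken as log2 CPM with a small count added before the log.

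The count model, replicate block and left-out libraries need values per library and were not run, and the authors' limma test was used instead. Standard errors are log2 fold changes over t. The transcript with the highest mean stands for a gene. Genes with a geometric mean of at least 10 counts (0.23 CPM) were tested and called at an adjusted p under 0.05. Intervals at 95% assume normal errors. Computing was done in Python 3.11.15 with pandas 2.3.3, scipy 1.17.1 and numpy 2.4.6, and tested on simulated data.

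The named genes are all members, Cdx2, Cdkn1a, Mdm4, tested paralogues and, from each other list, up to 4 called genes per direction with the smallest p; genes listed without reads, markers, Fas, Tnfrsf10b, Prkdc, Chek1 and Chek2 were named after their values were seen. Members and lists were chosen with earlier results of these data known. 1 further immune marker gene is not reported here. Alternatives were the longest transcript, adjustment over genes tested, 2 centrings of fold changes, removal of the trend on level, widened standard errors, other count floors and an adjusted p under 0.01.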

Additional observations from a re-analysis of the deposited data

How the results depend on the processing

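No paired analysis was possible because the table holds no values per library, and for the same reason no library was left out. The count of members called was 2 (1 of them lower) with widened standard errors, where Phlda3 (-0.29) and Zmat3 (-0.24) kept their estimates and lost the call by the construction of wider errors. Sesn1 was called when p-values were adjusted over the genes tested (-0.26), with centring on all genes (-0.26) and with the level trend removed (-0.28). With that trend removed Bbc3 was called too (-0.23), which gave 5 members lower. With ribosomal protein centring Mdm2 was called (0.16), which gave 2 members higher, and Bax turned sign (0.014); the cause was not tested. That centring moved the share of rises among all called genes from 45.7% to 58.9%, with 2100 genes higher and 1464 lower in place of 1393 and 1654. Widened standard errors left 190 higher and 386 lower, and without a count floor the counts were 1499 and 1794. Plk2 and Btg2 kept their direction and their call under all 6 settings that give a value per member, and the other count floors and the stricter threshold left 1 member higher and 3 lower. Depth limits Sesn1, Bbc3 and Btg2 most, which have the largest standard errors of the members.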

Other observations

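Genes within 500 kb of the members were looked at after their values were seen. Around all members, 34 of 164 tested neighbours were called higher and 7 lower by the authors' deposited table. That is 25% called, beside 24.7% over all genes tested (11.3% higher and 13.4% lower). Trp53 has a dense neighbourhood, and of its 43 tested neighbours 15 were called higher and 0 lower by the authors' deposited table (34.9% called), beside 11.3% higher and 13.4% lower over all genes tested, while Trp53 itself was not called. Kdm6b, a histone H3 demethylase gene 164 kb away (0.69 ± 0.066), Chd3, a chromatin remodeller gene 211 kb away (0.66 ± 0.064), and Kctd11, an inhibitor of Hedgehog signalling 286 kb away (0.87 ± 0.12), were among those that rose in the authors' deposited table. In all, 34 of the 43 estimates lay above 0, with a median of 0.20. With widened standard errors 3 rose and 0 fell, and with the level trend removed 16 rose and 1 fell. Wrap53, a telomerase cofactor gene 1.11 kb from Trp53, stood at 0.20 ± 0.089 (adjusted p 0.118, limma) in the authors' deposited table.

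Plk2 lies in a gene-poor region with 1 tested neighbour, Pde4d (0.075 ± 0.10), which was not called. Within 500 kb of Btg2, Atp2b4, a plasma membrane calcium pump gene (0.72 ± 0.085), Kdm5b, a histone H3 demethylase gene (0.58 ± 0.073), and Prelp (0.44 ± 0.14) rose in the authors' deposited table. These are 3 of 12 tested neighbours, or 25% called, all of them higher. Over all genes tested, 24.7% were called and 11.3% were called higher.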
